A study of Arabidopsis thaliana with 12 samples.

Results

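The genes described here are those whose probe sets gave more signal in ms35 anthers than in wild-type anthers of Arabidopsis thaliana at each labelled stage. Each gene is represented on the array by a probe set, whose signal was the measurement, and probe sets are counted here. A probe set was a member if, within each of the 3 labelled stages, the lower ms35 array had at least 1.5 times the signal of the higher wild-type array, and if at least 1 of the 12 arrays exceeded 100. Of 22746 probe sets without controls, 42 met this rule, and of the 9474 with an array over 100 they made up 0.443%. EXPA4, TBL26, ARPN and plastid-encoded genes were to be left out, and none of their named probe sets met the rule, while members without a named gene could not be checked against them. The members were therefore chosen by the ms35 to wild-type ratio at each stage, so those ratios are given as a description with no test.

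RNA came from anthers with their filaments, hybridised to 12 ATH1 arrays. The ms35 mutant, labelled as a gene knock-out in the Ler-0 background, was represented by 2 arrays each at stages labelled PMI (pollen mitosis I), bicellular, and PMII (pollen mitosis II), and the wild-type control by 2 arrays at each of the same stages. The labels name the source of the wild type Glabra and its arrays Ler, so the mutation and other differences between these lines cannot be told apart. Nothing in the labels says whether replicates came from separate plants, and p-values measure only the spread between these arrays, which may be technical.

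MS35 is the MYB transcription factor MYB26. It acts upstream of the NAC factors NST1 and NST2, which drive secondary wall thickening in the endothecium, the wall layer whose drying opens the anther, and ms35 anthers fail to open and release pollen. None of these 3 regulators had a named probe set, and the effect of the mutation on its own gene was not analysed here.

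The number of arrays limits the precision. Across probe sets, the 2 arrays of a group had a Pearson r of 0.910 to 0.941, a figure over genes, which are not independent replicates. GAPDH control probes at the 3' end gave 1.29 to 2.86 times the signal of those at the 5' end, a ratio that rises when RNA is degraded, with the top values in ms35 bicellular replicate 2 (2.37) and wild-type PMII replicate 2 (2.86). Summed signal of 12 late pollen genes, of 19 listed, was 2953 and 3395 in ms35 against 4575 and 4420 in wild type at PMI, 800.2 and 1776 against 891 and 563 at the bicellular stage, and 373 and 550 against 395 and 482 at PMII, so pollen transcripts were highest in the arrays labelled PMI and stage names are used as labels. The 4 tapetum and pollen coat genes with a probe set, of 18 listed, ran the other way, with sums of 399 to 570 in ms35 against 281 to 339 in wild type at PMI and 5301 to 9294 against 5392 to 5481 at PMII. No gene of either list was a member or had 0 signal in every array. In bulk anthers, a change in the share of a cell type and a change in RNA per cell cannot be told apart.

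The probe annotation gave 1 gene to 22 of the 42 members, several genes to 2 and none to 18. The 22 named members included genes of families known for wall or secreted proteins (the pectin methylesterase gene AT3G10720, the subtilase gene AT5G59130 and the SUEL lectin gene AT3G53080), enzyme genes (WSD1, ETFBETA, AT5G14590, AT3G57010, AT1G21770 and AT5G49900), transport and signalling proteins (CHX20, AT3G05400, AT1G11280 and IQD26) and genes given here by locus alone.

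**Figure D1:**
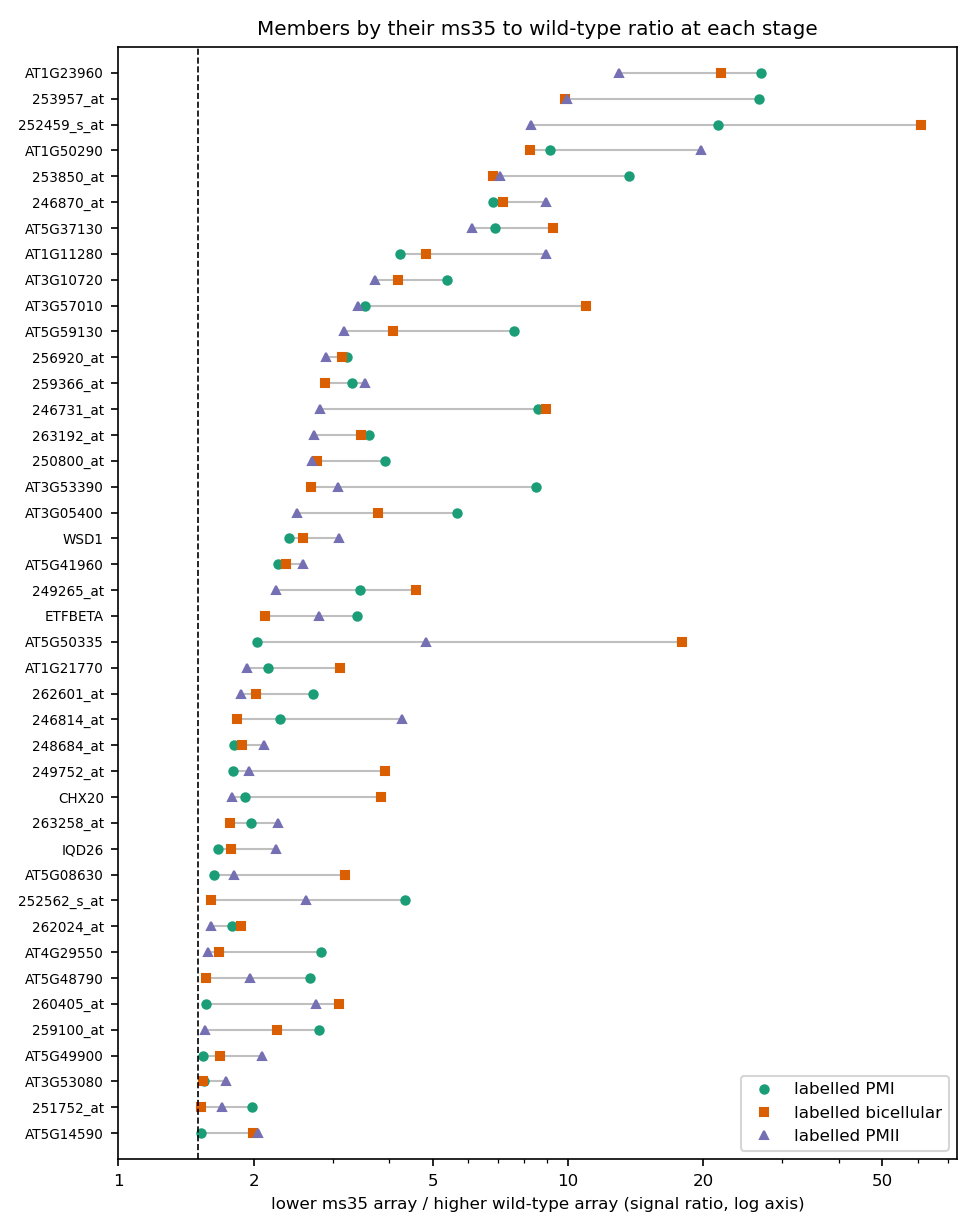
Ratio of the lower ms35 array to the higher wild-type array (horizontal log axis, signal ratio) for each of the 42 members, one row per member named by gene or, where none is annotated, by probe set. Points are the 3 labelled stages, the grey line joins a member's lowest and highest ratio and the dashed line marks 1.5; the smallest ratio of AT1G23960 was 13.0 and that of AT5G14590 was 1.53.

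The smallest of the 3 stage ratios was at least 5 in 7 members, at least 2 in 23 and under 2 in 19. The median difference between ms35 and wild type over the members, on the log2(signal + 2.23) scale, was 1.94 at PMI, 1.93 at the bicellular stage and 1.79 at PMII, beside 0.06, 0.01 and -0.02 over the 16464 probe sets tested. This scale adds a pseudocount and understates the change of dim probe sets. Just inside the limit were AT5G14590 (smallest ratio 1.53), AT3G53080 (1.54), AT5G49900 (1.54) and AT5G48790 (1.57), and just outside it AT5G22460 (1.49), AT5G17340 (1.48), AT3G28960 (1.48) and AT3G62450 (1.46).

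Several members were close to the floor of the array in wild type. In 6 members, 4 of them with a gene, all 6 wild-type arrays lay at or under 25.5, the 40th percentile of all values, used here as a limit of low signal. These 6 passed the filter for testing only through ms35 arrays, and their ratios and differences, which enter the counts and medians above, have no well determined size. In 4 of them all 6 ms35 arrays were over the limit. In 17 members all 6 wild-type arrays were over the limit, and the other 19 members were on both sides of it.

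AT1G23960 had the highest smallest ratio. Its signal was 309 and 342 in ms35 against 11.5 and 2.57 in wild type at PMI, 271 and 220 against 10.0 and 1.92 at the bicellular stage, and 253 and 335 against 0.897 and 19.5 at PMII. All 6 wild-type arrays were under the limit of low signal and all 6 ms35 arrays were over it, so the size of its ratio is not well determined.

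AT1G50290 gave 173 and 153 in ms35 against 16.8 and 1.45 in wild type at PMI, 189 and 156 against 9.65 and 18.9 at the bicellular stage, and 209 and 205 against 10.4 and 7.02 at PMII. AT5G37130 gave 82.4 and 78.0 in ms35 against 1.42 and 11.3 in wild type at PMI, 114 and 177 against 10.1 and 12.2 at the bicellular stage, and 157 and 136 against 22.2 and 12.8 at PMII. In both genes the ms35 arrays of any stage lay above every wild-type array, and the wild-type arrays all lay under the limit of low signal. The size of the ratio is not well determined in either gene.

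AT1G11280 belongs to the S-locus lectin receptor kinases, membrane proteins that carry an extracellular lectin domain. Its signal was 133 and 150 in ms35 against 31.5 and 9.44 in wild type at PMI, 179 and 130 against 17.4 and 27.0 at the bicellular stage, and 223 and 183 against 15.96 and 20.5 at PMII. Its ms35 arrays were between 130 and 223, and 4 of its 6 wild-type arrays were under the limit of low signal.

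**Figure D2:**
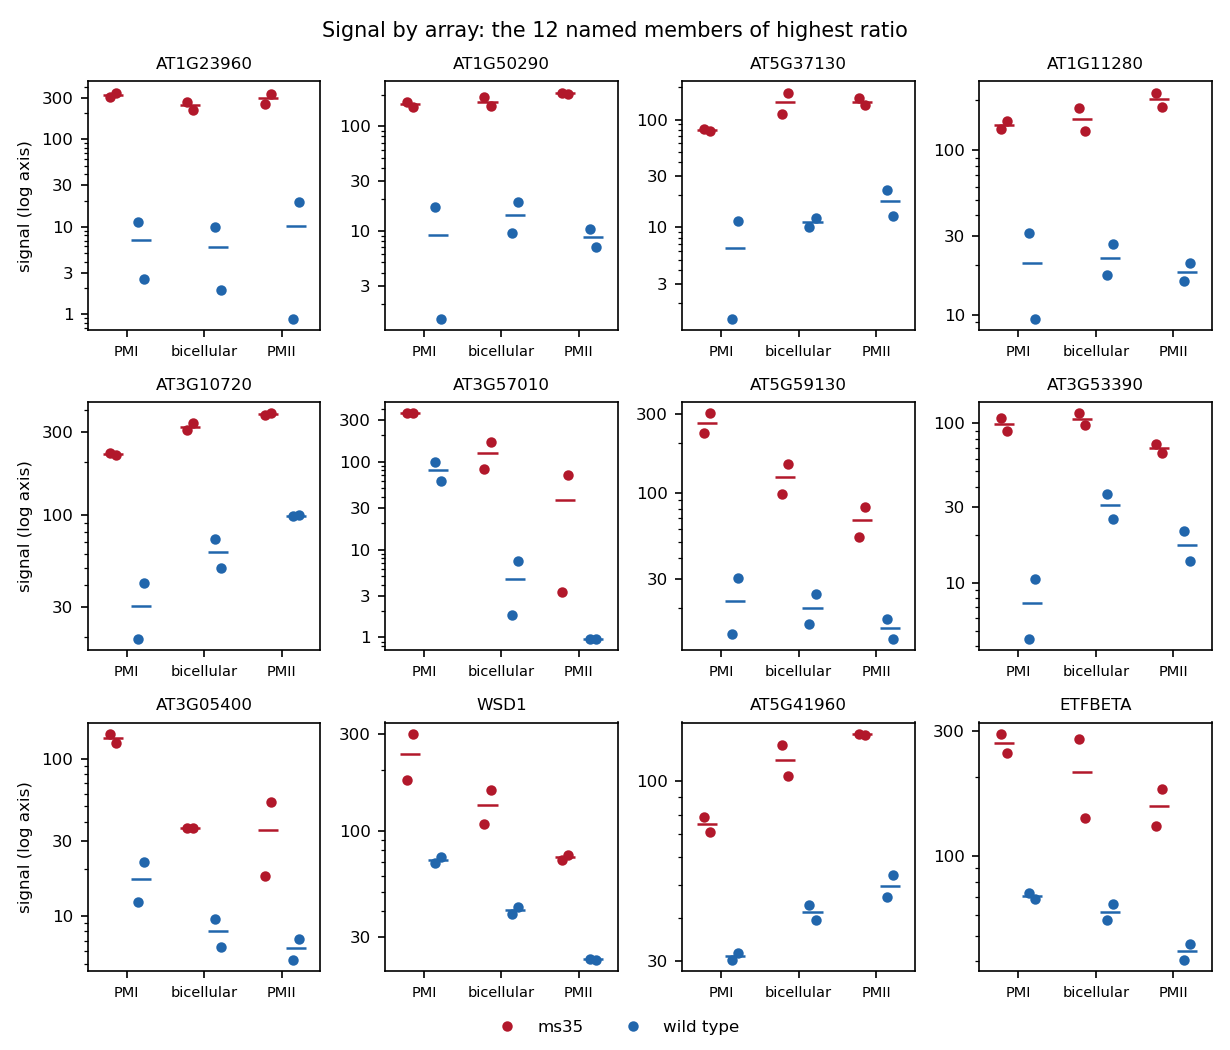
Signal in each array (vertical log axis) at the 3 labelled stages for the 12 named members of highest smallest ratio, ms35 in red to the left of wild type in blue; points are arrays and short lines are means of 2 arrays. In AT1G23960 the ms35 arrays lie between 220 and 342 and the wild-type arrays between 0.897 and 19.5, and in AT3G57010, AT5G59130, AT3G05400 and WSD1 the mean of each genotype is lower at the label PMII than at the label PMI.

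AT3G10720 belongs to the pectin methylesterases, which remove methyl groups from wall pectin. Its signal was 227 and 220 in ms35 against 19.6 and 40.8 in wild type at PMI, 307 and 334 against 73.2 and 50.05 at the bicellular stage, and 372 and 381 against 98.4 and 99.7 at PMII. The mean of each genotype was higher at each later label. AT5G59130, a subtilase of the secreted serine proteases, gave 230 and 303 in ms35 against 13.8 and 30.3 in wild type at PMI, 98.5 and 150 against 15.8 and 24.2 at the bicellular stage, and 54.1 and 81.5 against 17.1 and 12.9 at PMII. Its ms35 mean was lower at each later label, and 5 of its 6 wild-type arrays were under the limit of low signal.

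AT5G49900, of the GBA2 type beta-glucosidases, which act on glucosylceramide in membranes, gave 352 and 262 in ms35 against 170 and 135 in wild type at PMI, 598 and 469 against 277 and 279 at the bicellular stage, and 336 and 484 against 161 and 124 at PMII. Both genotypes had their highest mean at the bicellular stage. AT3G53080, of the galactose-binding SUEL lectins, gave 414 and 401 in ms35 against 259 and 203 in wild type at PMI, 60.4 and 218 against 39.2 and 2.90 at the bicellular stage, and 3.51 and 40.5 against 2.02 and 1.76 at PMII. At PMII only 1 of its 4 arrays, ms35 replicate 2, was above the limit of low signal, so its place among the members rests on dim values there.

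Among the enzymes, WSD1 makes wax esters and triacylglycerol by joining fatty acids to alcohols, and is known for the wax esters of the stem cuticle. Its signal was 178 and 301 in ms35 against 69.1 and 74.5 in wild type at PMI, 108 and 160 against 39.0 and 42.0 at the bicellular stage, and 72.1 and 76.0 against 23.3 and 23.1 at PMII. The mean of both genotypes was lower at each later label, and at PMII both wild-type arrays were under the limit of low signal.

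ETFBETA encodes the beta subunit of the mitochondrial electron transfer flavoprotein, which passes electrons from the breakdown of branched-chain amino acids to ubiquinone. It gave 292 and 248 in ms35 against 72.9 and 69.0 in wild type at PMI, 280 and 140 against 57.3 and 65.9 at the bicellular stage, and 130 and 181 against 40.5 and 46.6 at PMII. AT5G14590, an NADP-dependent isocitrate dehydrogenase, gave 382 and 313 in ms35 against 201 and 205 in wild type at PMI, 460 and 431 against 216 and 206 at the bicellular stage, and 371 and 423 against 182 and 157 at PMII. The ratio of the lower ms35 to the higher wild-type array was 3.397, 2.12 and 2.80 at the 3 labels for ETFBETA and 1.53, 2.00 and 2.04 for AT5G14590. Every array of both genes was over the limit of low signal.

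AT1G21770, of the acyl-CoA N-acyltransferase superfamily, gave 254 and 308 in ms35 against 94.2 and 118 in wild type at PMI, 383 and 314 against 89.6 and 101 at the bicellular stage, and 347 and 355 against 110 and 180 at PMII. AT3G57010, of the strictosidine synthase-like family, gave 355 and 355 in ms35 against 100.4 and 60.3 in wild type at PMI, 81.5 and 167 against 1.80 and 7.43 at the bicellular stage, and 3.28 and 70.2 against 0.958 and 0.963 at PMII. At PMII the ms35 replicates of AT3G57010 were far apart, and 3 of the 4 arrays lay under the limit of low signal.

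Of the transport and signalling genes, CHX20 is a cation/proton exchanger known for its part in the opening of stomatal guard cells. It gave 242 and 264 in ms35 against 108 and 126 in wild type at PMI, 57.4 and 107 against 14.97 and 14.1 at the bicellular stage, and 31.3 and 30.0 against 16.05 and 16.8 at PMII. Its wild-type arrays at the bicellular and PMII labels were all under the limit of low signal, so the difference is measured on both sides at PMI alone, where it was 1.10 on the log2 scale.

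AT3G05400, an ERD6-like sugar transporter, gave 145 and 126 in ms35 against 12.3 and 22.2 in wild type at PMI, 36.5 and 36.6 against 9.66 and 6.42 at the bicellular stage, and 17.9 and 53.3 against 5.30 and 7.18 at PMII. All of its wild-type arrays were under the limit of low signal. IQD26, a calmodulin-binding protein of the IQ-domain family, gave 85.7 and 71.2 in ms35 against 35.3 and 42.9 in wild type at PMI, 119 and 128 against 51.7 and 66.9 at the bicellular stage, and 137 and 185 against 61.3 and 50.1 at PMII. The smallest ratio of IQD26 was 1.66, and its difference was 0.97, 1.04 and 1.49 on the log2 scale at the 3 labels.

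Of the remaining named members, AT3G53390, a WD40-repeat protein, gave 107 and 90.1 in ms35 against 4.43 and 10.6 in wild type at PMI, 116 and 97.3 against 36.3 and 25.3 at the bicellular stage, and 74.6 and 64.9 against 21.0 and 13.6 at PMII. AT5G08630, a DDT domain protein of a family tied to chromatin remodelling, gave 156 and 87.4 in ms35 against 53.6 and 39.0 in wild type at PMI, 115 and 98.6 against 30.9 and 11.9 at the bicellular stage, and 68.4 and 95.04 against 37.8 and 22.8 at PMII. In AT3G53390 5 of the 6 wild-type arrays, and in AT5G08630 2 of the 6, were under the limit of low signal.

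AT5G50335 gave 119 and 111 in ms35 against 39.1 and 54.5 in wild type at PMI, 16.1 and 48.9 against 0.482 and 0.899 at the bicellular stage, and 10.5 and 5.63 against 1.07 and 1.16 at PMII. At PMII all 4 of its arrays were under the limit of low signal. AT5G41960 gave 78.4 and 71.4 in ms35 against 30.2 and 31.5 in wild type at PMI, 128 and 103 against 43.7 and 39.5 at the bicellular stage, and 138 and 137 against 46.1 and 53.2 at PMII. Its replicates lay close together and its difference was even, at 1.22, 1.42 and 1.43 on the log2 scale.

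AT4G29550 gave 109 and 114 in ms35 against 36.2 and 38.7 in wild type at PMI, 77.5 and 99.6 against 46.3 and 29.2 at the bicellular stage, and 57.9 and 63.5 against 36.6 and 11.8 at PMII. AT5G48790 gave 71.0 and 74.0 in ms35 against 10.0 and 26.6 in wild type at PMI, 126 and 94.0 against 48.7 and 59.9 at the bicellular stage, and 142 and 133 against 61.8 and 68.0 at PMII. The ratio of the lower ms35 to the higher wild-type array was 2.82, 1.67 and 1.58 at the 3 labels for AT4G29550 and 2.67, 1.57 and 1.96 for AT5G48790.

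The 18 members with no gene in the annotation had smallest ratios from 1.53 to 9.86, beside 1.53 to 13.0 in the 22 named ones. The values of 4 of them are given for the size of their ratio, a choice made after their values were seen. Probe set 253957_at gave 110 and 89.1 in ms35 against 1.42 and 3.34 in wild type at PMI, 40.02 and 59.2 against 2.41 and 4.06 at the bicellular stage, and 21.8 and 18.1 against 1.51 and 1.82 at PMII. Probe set 252459_s_at gave 62.0 and 69.2 in ms35 against 2.88 and 2.20 in wild type at PMI, 89.7 and 109 against 1.47 and 0.779 at the bicellular stage, and 69.2 and 100.7 against 7.19 and 8.35 at PMII. In both, wild-type anthers gave no array above the limit of low signal.

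Probe set 253850_at gave 376 and 380 in ms35 against 27.5 and 26.5 in wild type at PMI, 870 and 680 against 75.6 and 99.8 at the bicellular stage, and 748 and 742 against 94.5 and 105 at PMII. Probe set 246870_at gave 289 and 270 in ms35 against 39.7 and 32.6 in wild type at PMI, 431 and 353 against 39.7 and 49.3 at the bicellular stage, and 347 and 386 against 38.8 and 28.8 at PMII. In these 2 every wild-type array was above the limit of low signal, and the difference averaged 3.23 and 3.11 on the log2 scale.

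In 28 of the 42 the 3 stage differences lay within 1 of each other on the log2 scale, and in 4 they lay over 2 apart. The named ones of these 4 were AT3G53080, AT5G50335 and AT3G57010, whose wild-type arrays at the later labels were mostly under the limit of low signal, so their stages cannot be ranked by the size of the difference. In 32 members the lowest ms35 array of any stage was above the highest wild-type array of any stage, and in the other 10 it was not. These counts come from the values that the rule used. They have no share over all probe sets beside them and support nothing about the members. Replicate ms35 arrays differed by over 1.5 times at a stage in 17 members, and in 5 members at least 1 ms35 array was at or under the limit of low signal.

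The rule was also applied to some of the arrays and read on the others, which describes how far it depended on single arrays and stages and supports nothing about the members. Of 153 probe sets that met the 1.5-fold rule at all stages on the replicate 1 arrays, 56 (36.6%) met it on the replicate 2 arrays, beside 1.53% of all 9474 with an array over 100. Of 145 chosen on replicate 2, the same 56 (38.6%) met it on replicate 1, beside 1.61%. By stage, the 42 that met the rule at the remaining label are the members themselves. Of 65 probe sets that met the rule at the bicellular and PMII labels, 42 (64.6%) met it at PMI, beside 4.14% of all. Of 82 chosen at PMI and PMII, 42 (51.2%) met it at the bicellular stage, beside 2.17%, and of 72 chosen at PMI and the bicellular stage, 42 (58.3%) met it at PMII, beside 2.21%. With the genotypes exchanged, 55 probe sets (0.581%) met the full rule as lower in ms35 at every stage.

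The change of the members between stages, averaged over ms35 and wild type, was not itself used by the rule. It was tested with limma over all 16464 probe sets, with Benjamini-Hochberg adjustment at 0.05. The rule did use the lower ms35 array, the higher wild-type array and a signal floor. It can therefore favour probe sets with close replicates and higher signal. The p-values and counts of calls are thus not independent of the choice of members. From the label PMI to the label PMII, 24 of the 42 members changed, beside 40.1% of all probe sets. Of the 24, 10 were higher and 14 lower at PMII, beside 24% higher and 16.1% lower of all. Every member has an array over the floor of the rule, whereas the 16464 needed only arrays over the lower limit of low signal. Shares over probe sets that meet the floor were not computed for any step. An excess or deficit of calls among the members was therefore not tested. The median over the members was -0.03 on the log2 scale, beside 0.15 over all. The calls of 18 of the 24 remained in all 20 alternative settings.

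The 4 largest decreases were in genes named above. AT3G53080 fell by 5.26 ± 0.69 on the log2 scale (SE, n = 4 arrays per stage; limma adjusted p = 1e-04). AT3G57010 fell by 4.40 ± 0.64 (limma adjusted p = 0.000207), AT5G50335 by 3.70 ± 0.47 (limma adjusted p = 8.38e-05) and CHX20 by 2.82 ± 0.22 (limma adjusted p = 4.36e-06). The sizes of all 4 rest in part on arrays under the limit of low signal at the later labels, in CHX20 on its wild-type arrays. In these 4 genes the ms35 bicellular array was higher in replicate 2 than in replicate 1. By direction alone, the same held in 22 of the 42 members and not in the rest. Replicate 2 gave 3.60 times the signal of replicate 1 in AT3G53080, 3.03 in AT5G50335, 2.05 in AT3G57010 and 1.87 in CHX20. Among the other members higher in replicate 2 the largest such ratio was 1.72, in 246731_at. Replicate 2 of ms35 bicellular is the array with the higher sum of late pollen signal (1776 against 800.2 in replicate 1) and a GAPDH ratio of 2.37. In wild type at the bicellular stage the late pollen sum was 891 in replicate 1 and 563 in replicate 2, with AT3G53080 and CHX20 higher in replicate 1 and AT3G57010 and AT5G50335 higher in replicate 2, at dim values except for AT3G53080 in replicate 1. The same ms35 array had the lower tapetum and pollen coat sum (1621, against 3391 in replicate 1). Of the 12 late pollen genes 9 fell and none rose between the same labels. CHX20 and the other 3 were picked for the size of their fall, so sharing its direction was fixed by that choice. Whether pollen transcripts have a part in the level of these genes was not tested.

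AT3G05400 fell by 1.60 ± 0.38 (limma adjusted p = 0.00514), WSD1 by 1.58 ± 0.21 (limma adjusted p = 0.000101) and AT5G59130 by 1.19 ± 0.29 (limma adjusted p = 0.00573) on the log2 scale. All 6 wild-type arrays of AT3G05400 and 5 of the 6 of AT5G59130 were under the limit of low signal. Neither gene could have passed the filter on its wild-type arrays alone, and the sizes of their averaged falls are not well determined. ETFBETA fell by 0.74 ± 0.21 (limma adjusted p = 0.0158), a call that was lost without ms35 PMI replicate 1 (adjusted p = 0.0544) or ms35 PMII replicate 1 (0.0673). AT4G29550 fell by 0.81 ± 0.30 (limma adjusted p = 0.0463), and its call was lost on leaving out any 1 array other than wild-type bicellular replicate 2 or wild-type PMII replicate 1, with adjusted p up to 0.159 without wild-type PMII replicate 2.

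AT5G48790 rose by 1.37 ± 0.25 on the log2 scale (limma adjusted p = 0.00112), and AT3G10720 by 1.24 ± 0.21 (limma adjusted p = 0.000556). AT5G41960 rose by 0.75 ± 0.17 (limma adjusted p = 0.00451) and IQD26 by 0.75 ± 0.19 (limma adjusted p = 0.00682). AT5G37130 rose by 1.15 ± 0.38 (limma adjusted p = 0.029), and lost its call without either ms35 PMI array (adjusted p = 0.0623 and 0.0724), either ms35 PMII array (0.0885 and 0.0582), wild-type PMI replicate 1 (0.0851) or wild-type PMII replicate 1 (0.0967). All 6 of its wild-type arrays were under the limit of low signal. It was thus tested only through its ms35 arrays, and the size of its averaged rise is not well determined. All 4 tapetum and pollen coat genes and all 4 nuclear photosynthesis genes with a probe set also rose between these labels, and their part in the level of the members was not tested.

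**Figure D3:**
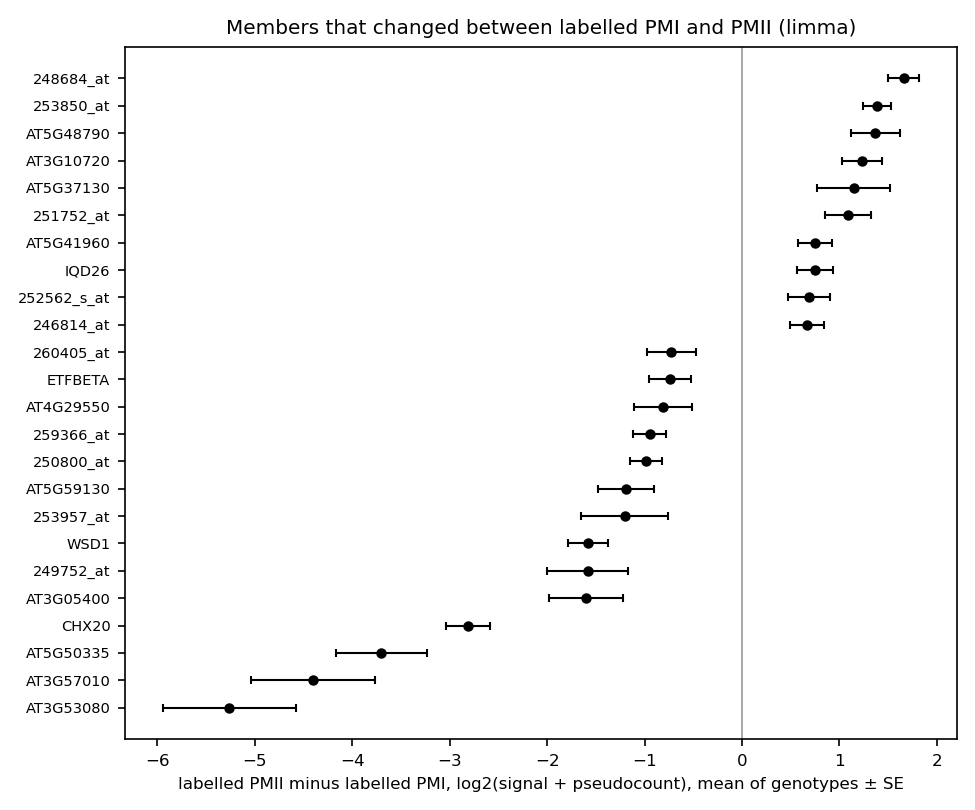
Change from the label PMI to the label PMII, averaged over ms35 and wild type (horizontal axis, difference of log2(signal + 2.23)), for the 24 members called by limma, with the SE as bars. The 14 members to the left of 0 include AT3G53080 at -5.26 and the 10 to the right include AT5G48790 at 1.37.

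Among members without a single gene, 248684_at rose by 1.66 ± 0.16 on the log2 scale (limma adjusted p = 1.34e-05) and 253850_at by 1.39 ± 0.14 (limma adjusted p = 2.05e-05). The members 251752_at, 246814_at and 252562_s_at were also called higher at PMII. The members 249752_at, 253957_at, 250800_at, 259366_at and 260405_at were called lower. Of these, 253957_at, 260405_at and 252562_s_at lost their calls in some settings, and 253957_at did so with the replicate number as a block (limma adjusted p = 0.0572). All 6 wild-type arrays of 253957_at were under the limit of low signal, so it was tested only through its ms35 arrays.

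From the label PMI to the bicellular label 16 of the 42 members changed by limma, beside 22.8% of all probe sets, 8 higher and 8 lower, beside 13.9% and 8.92% of all. The median over the members was 0.04 on the log2 scale, beside 0.11 over all probe sets. As above, all probe sets include dimmer ones that could not be members. CHX20 fell by 2.24 ± 0.22 on the log2 scale (limma adjusted p = 7.18e-05), AT5G50335 by 2.99 ± 0.47 (limma adjusted p = 0.00107) and AT3G53080 by 2.90 ± 0.69 (limma adjusted p = 0.0103). AT3G57010 fell by 2.63 ± 0.64 (limma adjusted p = 0.0116), with adjusted p = 0.0513 without ms35 bicellular replicate 1. The sizes of these falls rest in part on arrays under the limit of low signal at the bicellular label. AT5G48790 rose by 1.08 ± 0.25 (limma adjusted p = 0.0101) and AT5G49900 by 0.83 ± 0.17 (limma adjusted p = 0.00505). The count of calls was 10 without ms35 bicellular replicate 1.

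The calls of AT3G10720, IQD26 and AT3G53390 among the higher and of WSD1, AT3G05400 and 250800_at among the lower were each lost without at least 1 array, that of IQD26 also with quantile normalization (adjusted p = 0.066) and median centring (0.0697), and that of 250800_at also without the variance trend (0.0718). Their changes were 0.77 ± 0.21, 0.61 ± 0.19, 0.96 ± 0.28, -0.80 ± 0.21, -1.36 ± 0.38 and -0.58 ± 0.17 on the log2 scale, in that order. For WSD1 these arrays were ms35 PMI replicate 2 (adjusted p = 0.0748) and ms35 bicellular replicate 1 (0.0674), and for AT3G10720 they were ms35 PMI replicate 2 (0.0559), wild-type PMI replicate 1 (0.053) and wild-type bicellular replicate 1 (0.0728). For IQD26 the highest adjusted p was 0.125, for AT3G53390 0.0944, for AT3G05400 0.0809 and for 250800_at 0.116. AT3G05400 was, here too, tested only through its ms35 arrays. AT3G53390, with 5 of its 6 wild-type arrays under the limit of low signal, could not have passed the filter on wild-type arrays alone. Its averaged rise came from 0.11 within ms35 and 1.82 within wild type, so its size is not well determined. The remaining calls were of 253850_at, 248684_at and 246814_at, higher, and of 260405_at, lower.

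**Figure D4:**
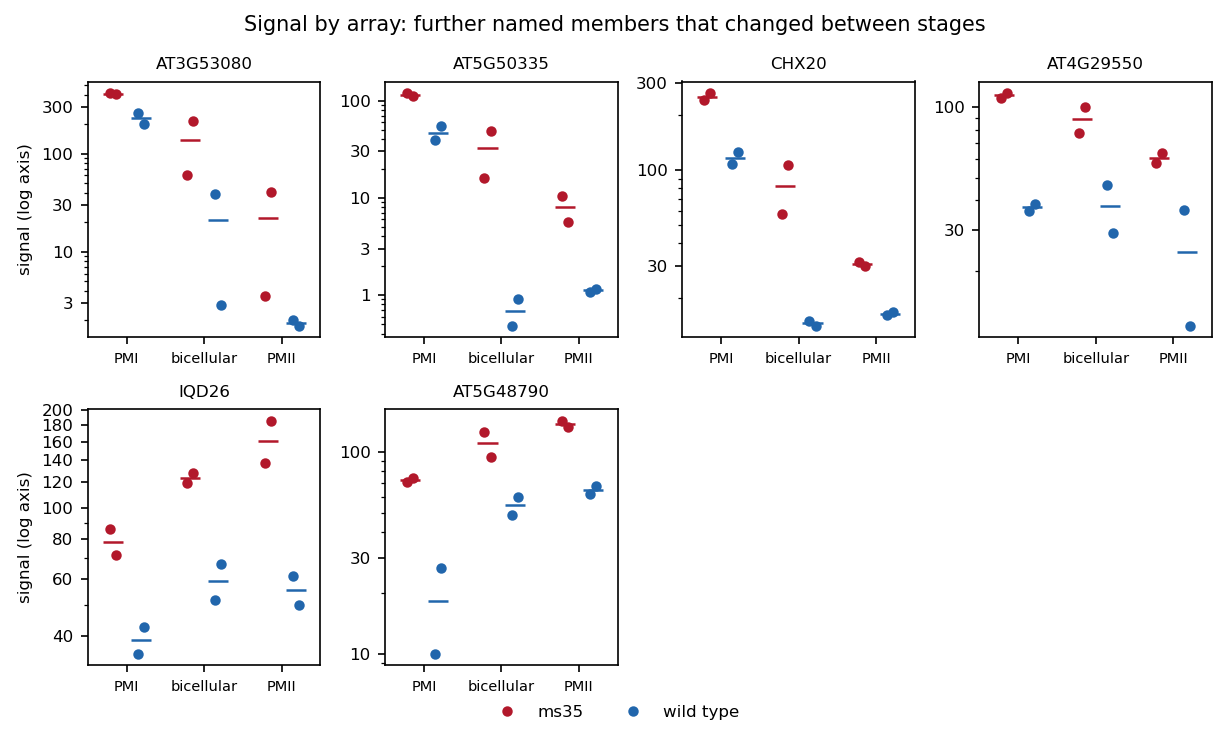
Signal in each array (vertical log axis) at the 3 labelled stages for 6 further named members that changed between the labels PMI and PMII, ms35 in red to the left of wild type in blue; points are arrays and short lines are means of 2 arrays. AT3G53080, AT5G50335 and CHX20 are highest at the label PMI in both genotypes, where CHX20 has 242 and 264 in ms35 against 108 and 126 in wild type.

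From the bicellular label to PMII, 3 of the 42 members changed by limma, the same share as the 7.14% of all probe sets, 1 higher and 2 lower, beside 3.09% and 4.05% of all. WSD1 fell by 0.78 ± 0.21 on the log2 scale (limma adjusted p = 0.0415), AT5G49900 fell by 0.68 ± 0.17 (limma adjusted p = 0.0356) and 248684_at rose by 0.64 ± 0.16 (limma adjusted p = 0.032). Each of the 3 calls was lost in some settings, with adjusted p up to 0.235, 0.155 and 0.131. No member was called by limma without ms35 bicellular replicate 2 (8 at an unadjusted p under 0.05), ms35 PMII replicate 1 (7), wild-type bicellular replicate 1 (8) or wild-type PMII replicate 2 (11), and 1 was without wild-type PMII replicate 1.

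By locus order in the TAIR10.1 gene table, the 22 named members lay on chromosome 5 (10), chromosome 3 (7), chromosome 1 (4) and chromosome 4 (1), with none on chromosome 2. Chromosome 5 thus held 45.5% of the named members beside 22.5% of the named probe sets, and chromosome 2 none beside 16.5%. Of 18 pairs of neighbouring members, 4 had under 100 protein-coding genes between them, a window set after the data were seen. AT3G53080 and AT3G53390 had 35 protein-coding genes between them, and AT3G53390 and CHX20 a further 32. AT5G37130 and WSD1 had 18 genes between them, and AT5G49900 and AT5G50335 had 45.

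Of the 9, 12, 4 and 15 tested single-gene probe sets inside those 4 intervals, none was higher in ms35 at every stage without overlap, beside 2.86% of all tested. The intervals end at neighbouring members, so no named probe set that met the rule could lie inside, whereas the 2.86% includes the members. With so few probe sets, this comparison says nothing about the intervals. In each of 2 intervals 1 probe set was lower without overlap, a count with no share over all probe sets beside it. The median difference between ms35 and wild type inside the intervals was 0.16, 0.05, -0.40 and -0.11 on the log2 scale. The grouping of members by position was seen in the data and was not tested.

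The 4 secondary wall genes with a probe set, of 19 listed (IRX15, IRX15-L, GUT2 and HCT), were no members. At PMI HCT gave most of their sum, with 157 and 171 in ms35 against 1415 and 758 in wild type, whereas GUT2 gave 46.2 and 34.1 in ms35 against 58.8 and 34.9 in wild type there. At the bicellular stage GUT2 gave 24.0 and 53.6 in ms35 against 123 and 206 in wild type. IRX15-L gave 16.1 and 1.08 against 392 and 440 at that stage. The summed signal of the 4 was 170.0 to 224 over the ms35 arrays, against 927 to 1618 at PMI, 1223 to 1465 at the bicellular stage and 333 to 354 at PMII in wild type. Of the 4 genes of the defence, heat and dehydration list with a probe set, of 13 listed, none was a member. Their sum was 1975 to 2265 in ms35 against 3507 to 4304 in wild type at PMI. It was 1368 to 1669 against 1688 to 2265 at the bicellular stage and 1936 to 2081 against 2059 to 2221 at PMII. COR15A gave most of this sum, with 1912 and 1895 in ms35 against 3552 and 2784 in wild type at PMI. Nuclear photosynthesis genes, 4 of 16 listed, summed to 1429 to 4926 in ms35 against 1370 to 4395 in wild type.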

How the data were processed

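The authors deposited probe set signal for each array, an intensity that is not log-transformed. MAS5 and GCOS are named per the submitters' processing notes. Each array had been brought to a common level: the mean after trimming 2% of values at each end was 100.01 on every array. From 22810 probe sets 64 controls were left out. The membership rule was applied to the deposited signal. Probe sets were named through the probe annotation provided, updated by gene identifier to a TAIR10.1 gene table used only for names and order of loci. A single gene was found for 13513 probe sets, while 503 listed several genes and 8730 listed none.

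For the changes between stages, log2(signal + 2.23) was computed, 2.23 being the 10th percentile, and probe sets with at least 2 arrays over 25.5 (the 40th percentile) were tested, 16464 in all. limma 3.58.1 in R 4.3.3 was fitted to the means of the 6 groups with an intensity trend. Each contrast between stages was averaged over the genotypes, which makes it orthogonal to the genotype differences the rule used. This does not extend to the spread between replicates and the level of signal, on which the rule also depended. The script was tested on simulated data. Named are members with 1 gene: the first 12 by smallest ratio, those called between stages and those of known function. The members and gene lists were chosen with earlier results of these data known. Alternatives were other normalizations, pseudocounts, filters, variance models, a replicate block and leaving out arrays.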

Additional observations from a re-analysis of the deposited data

How the results depend on the processing

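The count of 42 members was 23 with a fold of 2, 23 with a floor of 200 and 64 without the 2 arrays of highest GAPDH ratio (an alternative chosen after seeing the data; all 42 remained, and fewer arrays make the rule easier to meet). Leaving out 1 array gave 44 to 54, and 39 members remained in each such set. Quantile normalization gave 43 probe sets, 40 of them shared, and median scaling 43, 37 of them shared. Between PMI and bicellular the count of called members ran from 10 to 18 with 1 array left out, against 16, with the lowest count of 10 without ms35 bicellular replicate 1. Between PMI and PMII it ran from 18 to 23, against 24. Between bicellular and PMII it ran from 0 to 3, against 3, and was 0 when limma's prior variance had no trend (11 members had an unadjusted p under 0.05) and 0 in limma without the 2 arrays of highest GAPDH ratio (10 at an unadjusted p under 0.05). No called change reversed its direction. The labels do not say whether the replicate numbers pair the arrays. The difference between replicates correlated over 0.1 in 4 of 15 pairs of groups (-0.126 to 0.182), which cannot exclude a pairing. With the replicate block the counts were 16, 3 and 23. Over all probe sets, calls between PMI and PMII were 3956 higher and 2650 lower, and 3076 and 3007 with median centring, which moved the median change of all probe sets to 0.04 against 0.15; between PMI and bicellular they were 2287 and 1468, and 1627 and 1601; between bicellular and PMII 509 and 667, and 370 and 693, with 120 and 110 without the variance trend. The cause of these shifts was not tested. Signal under 25.5 limits what can be said of dim members.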
